A study of Arabidopsis thaliana with 42 samples.

Results

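AT3G52960 and SAPX (AT4G08390) are nuclear genes of Arabidopsis thaliana whose products remove peroxide in plastids. They are 2 of the 13367 genes that a probe set of the array measures alone, and of the 6590 of these whose mean signal over all arrays reached 100. Both were chosen on the measured values, because their nitrate responses, averaged over all accessions, ran in opposite directions. That average and the response of each accession are therefore described below without a test, and tests are kept for comparisons that the choice did not use.

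AT3G52960 encodes peroxiredoxin IIE, a plastid member of the type II peroxiredoxins, which reduce hydrogen peroxide and organic peroxides through a reactive cysteine and are themselves reduced by glutaredoxins and thioredoxins. SAPX encodes the stromal ascorbate peroxidase, a haem enzyme that reduces hydrogen peroxide with ascorbate and is also sent to mitochondria. The oxidised ascorbate is recovered by monodehydroascorbate and dehydroascorbate reductases and by glutathione reductase. In roots, nitrate is reduced to nitrite in the cytosol and nitrite to ammonium in plastids, which draws on reductant in the same compartment.

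Whole roots of the natural accessions Col0, Kas2, NFA8, SQ8, TAMM27, Ts5 and Var2-1 were compared after 2 hours in 5 mM KNO3 and after 2 hours in 5 mM KCl, which supplies the potassium without the nitrate. All plants were 12 days old and had grown hydroponically on basal Murashige and Skoog medium, with ammonium succinate (0.5 mM) as the nitrogen source and sucrose (3 mM), so that the KCl roots too had been supplied with nitrogen. Each of the 14 groups had 3 ATH1 arrays from replicate trials, 42 in all, with many seedlings pooled in each. The array was designed on the Col0 sequence, and because its values come from whole roots, a smaller number of cells of a type and less RNA per cell cannot be told apart.

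The median signal of the arrays was 97.8 to 158, with 49.5 to 62.5% of probe sets at 100 or more. NIR1, the plastid nitrite reductase that nitrate is known to induce, was higher in KNO3 by 1.63 on the log2 scale (SE 0.34, averaged over 7 accessions, limma adjusted p = 0.0258 over all 22746 probe sets, of which 0.339% passed), while the nitrate transporter gene NRT2.1 had a response of 1.82 (SE 0.49) that did not pass (adjusted p = 0.144), nor did the nitrate reductase gene NIA2 with 0.68 (SE 0.23, adjusted p = 0.357). These 3 genes were named from a list that the study had selected on these arrays, so they are no independent check. Of 7 listed root markers 2 were measured. PYK10 had group means of 3994 to 9979. EXPA7 was low, with a mean of 127 over all arrays and group means of 27.2 (TAMM27 KNO3) to 416 (SQ8 KNO3). The summed signal of the 4 measured green tissue markers (RCA, PSAE1, LHCB4.1 and PRK, of 12 listed) was 40092 on Var2-1 KNO3 replicate 1 and 203.5 to 7989 on the other arrays. The 3' to 5' ratio, the mean log2 difference between probe sets at both ends of GAPDH, actin and ubiquitin transcripts, which follows RNA integrity and labelling length, was under 2 on 24 arrays and at or above it on 18, among them all 3 Kas2 KCl arrays and Var2-1 replicate 1 in both treatments.

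The AT3G52960 signal was higher in KNO3 than in KCl on average in every accession, and the distance between the treatments differed widely in size. In Kas2 it was 400.3, 396 and 959 on the KNO3 arrays, against 153, 59.2 and 64.9 on the KCl arrays, of which the last 2 lay under 100, the cutoff for detection in the study's methods. In Ts5 the KNO3 arrays gave 2239, 4228 and 1303, against 294, 506 and 375 on the KCl arrays. In NFA8 they gave 981, 1105 and 1432 in KNO3, against 557, 286 and 564.5 in KCl. In these 3 accessions each KNO3 array lay above each KCl array, and Ts5 in KNO3 held the highest signal of all 42 arrays.

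TAMM27 had 784, 1381 and 619.8 in KNO3, against 74.6, 232 and 661 in KCl, where a single array reached the KNO3 range. SQ8 had 975, 747 and 1035 in KNO3, against 413, 415 and 865 in KCl. Both therefore overlapped by 1 KCl array, which was replicate 3 in each. Var2-1 had 475, 714 and 606 in KNO3, against 464, 564 and 444 in KCl, and the groups overlapped. Col0 had 826, 2122 and 1597 in KNO3, against 696, 2138 and 833 in KCl. Replicate 2 was the highest of its group in both treatments in Col0, and the groups overlapped.

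As log2 KNO3 over KCl, the AT3G52960 response was 2.65 in Kas2, 2.59 in Ts5, 1.95 in TAMM27, 1.37 in NFA8, 0.78 in SQ8, 0.39 in Col0 and 0.27 in Var2-1 (SE 0.55 in each, 3 arrays per group). The Ts5 value corresponds to a 6.04-fold higher signal in KNO3, and the Col0 and Var2-1 values to 1.31-fold and 1.21-fold. Since the Kas2 KCl mean of 92.5 lay under 100, the Kas2 fold is a bound, at least 4.6-fold with the signals under 100 set to 100 (a log2 response of 2.20, below that of Ts5). In TAMM27, where 1 KCl array lay under 100, the same step gave a log2 response of 1.81, or 3.51-fold. The small Col0 response moved between 0.08 without KCl replicate 1 and 0.89 without KCl replicate 2, that of Var2-1 between 0.14 without KNO3 replicate 2 and 0.43 without KNO3 replicate 1, and that of TAMM27 was 1.16 without KCl replicate 1, its lowest array. The average over the 7 accessions, on which the gene was chosen, was 1.43 (SE 0.21), and 0.379% of the tested genes were called higher in KNO3 on that average. All KNO3 arrays lay above all KCl arrays in 3 of 7 accessions, which was also the case in at least as many accessions for 0.91% of the tested genes. The response was positive in all 7, as for 1.18% of the tested genes, which the choice on the average partly fixes.

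**Figure D1:**
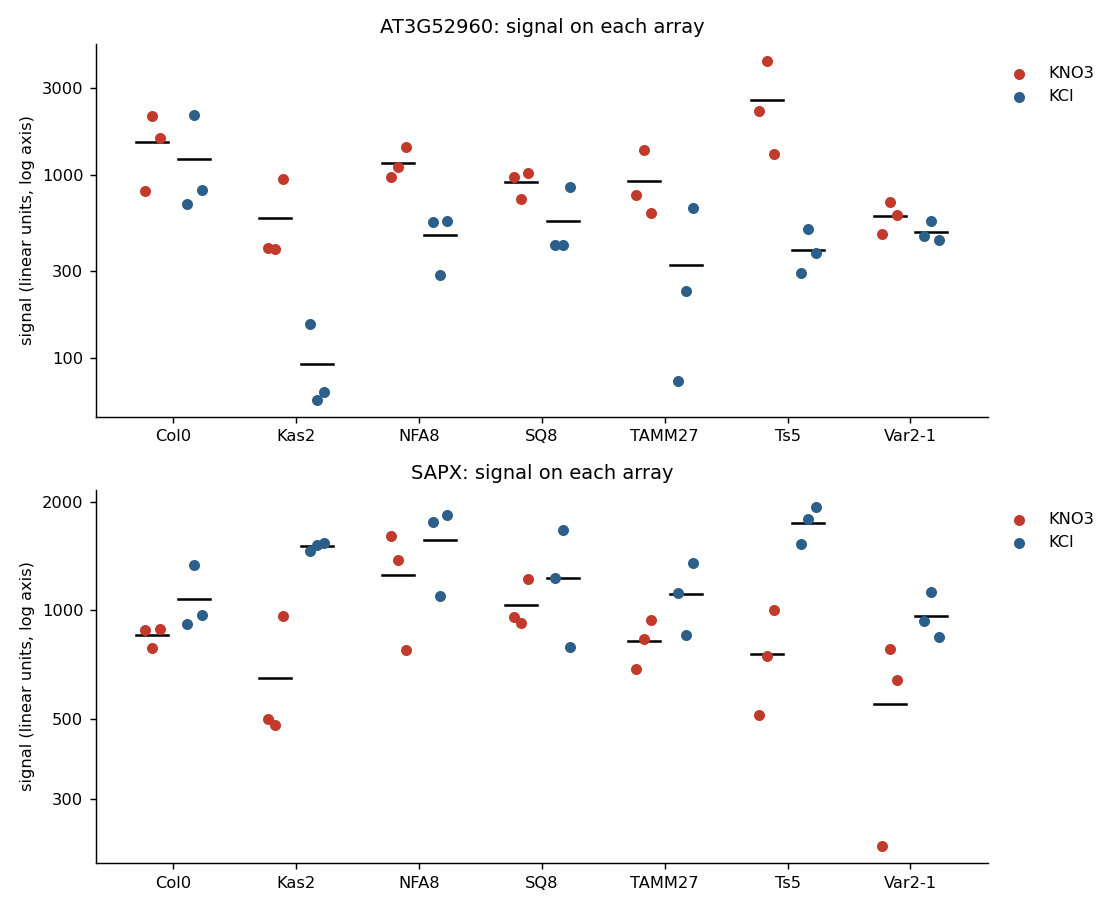
Signal of AT3G52960 (upper panel) and SAPX (lower panel) on each of the 42 arrays, on a log axis, with KNO3 (red) left of KCl (blue) in each accession and black lines at the mean of 3 arrays. AT3G52960 lies lowest in Kas2 KCl (mean 92.5) and highest in Ts5 KNO3 (mean 2590.0), while SAPX has its lowest array, 222, in Var2-1 KNO3.

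SAPX was lower in KNO3 than in KCl on average in all 7 accessions, within a narrower span of signals. In Kas2 it was 499, 482 and 962 on the KNO3 arrays, against 1463, 1515 and 1536 on the KCl arrays. In Ts5 the KNO3 arrays gave 514, 748 and 1003, against 1523, 1784 and 1930.2 on the KCl arrays. In Var2-1 they gave 222, 782 and 641 in KNO3, against 931, 1126 and 841.5 in KCl. Each KNO3 array lay below each KCl array in these accessions. The value of 222 was the lowest of all 42 for SAPX. It came from Var2-1 KNO3 replicate 1, with the high green tissue signal and the highest 3' to 5' ratio of the 42 arrays (4.57).

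Col0 had 882, 785 and 888 in KNO3, against 916, 1332 and 969.5 in KCl. Its KNO3 arrays also lay below its KCl arrays, but the nearest values, 888 and 916, were close. TAMM27 had 689, 831 and 938 in KNO3, against 1119.9, 854.5 and 1351 in KCl. NFA8 had 1608, 1375 and 774 in KNO3, against 1757, 1097 and 1832.5 in KCl. SQ8 had 956, 919 and 1222 in KNO3, against 1226, 1665 and 793 in KCl. The treatments overlapped in these last 3 accessions.

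The SAPX response, as log2 KNO3 over KCl, was -1.29 in Kas2, -1.25 in Ts5, -0.99 in Var2-1, -0.42 in TAMM27, -0.35 in NFA8, -0.31 in Col0 and -0.20 in SQ8 (SE 0.36 in each). The KNO3 signal was 0.409 of the KCl signal in Kas2, 0.419 in Ts5 and 0.503 in Var2-1, and 0.872 of it in SQ8. The Var2-1 response rested on KNO3 replicate 1, without which it was -0.44. The smaller responses also turned on single arrays: that of SQ8 was 0.05 without KCl replicate 2 and -0.48 without KCl replicate 3, that of NFA8 -0.03 without KNO3 replicate 3 and -0.58 without KCl replicate 2, that of Col0 -0.15 without KCl replicate 2, and that of TAMM27 -0.27 without KCl replicate 3. The average that chose the gene was -0.69 (SE 0.14), and 0.41% of the tested genes were called lower in KNO3. All KNO3 arrays lay below all KCl arrays in 4 of 7 accessions, as they did in at least as many for 0.152% of the tested genes. The response was negative in all 7, as for 1.4% of the tested genes, which the choice on the average partly fixes. Without Var2-1 KNO3 replicate 1 the average was -0.61.

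**Figure D2:**
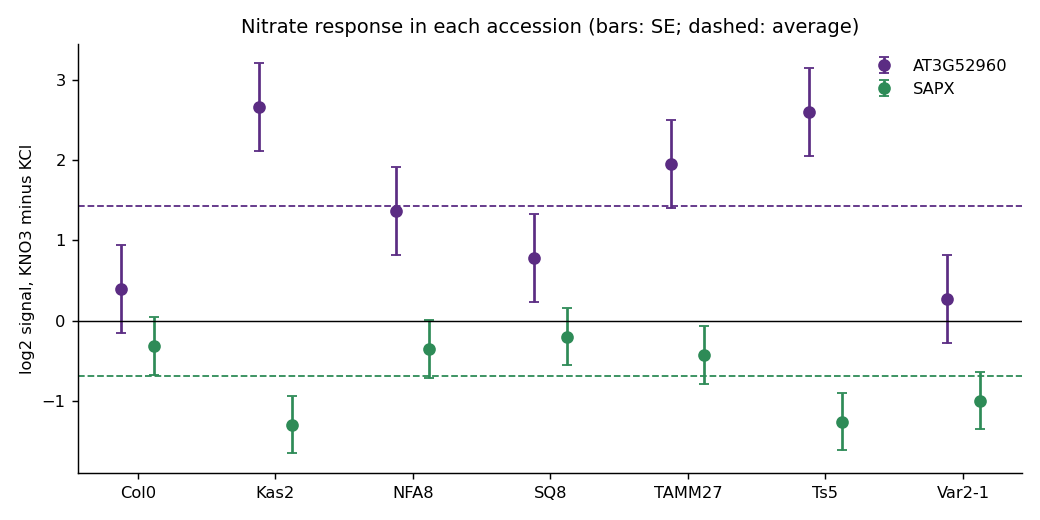
Nitrate response (log2 signal, KNO3 minus KCl) of AT3G52960 (purple) and SAPX (green) in each accession, with bars of 1 SE from the fit over 42 arrays and dashed lines at the averages of 1.43 and -0.69. All 7 AT3G52960 values are above 0 and all 7 SAPX values below it, as for 1.18% and 1.4% of the tested genes. Kas2 and Ts5 lie farthest from 0 for both genes.

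Kas2 and Ts5 had the 2 largest responses for each gene, in opposite directions. Whether the responses differed among accessions at all is a question the choice of the genes left untouched. The interaction of treatment and accession did not pass for AT3G52960 (limma F-test, unadjusted p = 0.0111, adjusted p = 0.603) or for SAPX (unadjusted p = 0.139, adjusted p = 0.902). It passed for 0.197% of the tested genes. Kas2 exceeded the mean AT3G52960 response of the other 6 accessions by 1.43 (SE 0.59, limma adjusted p = 0.511) and Ts5 by 1.36 (SE 0.59, adjusted p = 0.425), and Var2-1 was 1.35 below it, at -1.35 (SE 0.59, adjusted p = 0.999). For SAPX the largest such difference was -0.70 in Kas2 (SE 0.39, adjusted p = 0.692). None of the 14 comparisons of an accession with the others passed, a test passed by 0.303% of the tested genes in Kas2, 0.228% in Ts5, 0.0607% in TAMM27, 0.0303% in NFA8 and none in Col0, SQ8 and Var2-1, so the order of the responses above is not separated from the spread between arrays.

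The level of AT3G52960, averaged over the treatments, did differ among accessions (limma F-test, adjusted p = 1.05e-04), as it did for 59.8% of the tested genes. Kas2 was lower than the mean of the other 6 accessions by a log2 difference of -1.76 (SE 0.30, adjusted p = 1.02e-04), or 3.38-fold as measured with 2 of its 6 arrays under 100, a test passed in Kas2 by 20.8% of the tested genes. Col0 was higher than the others by 1.20 (SE 0.30, adjusted p = 0.00472), or 2.29-fold, where 26.1% passed. Ts5 was higher by 0.74 (SE 0.30, adjusted p = 0.0996), where 16.9% passed, and this call was lost in 6 of 15 other settings and in 32 of the 42 fits without 1 array, with an adjusted p of up to 0.343 without Ts5 KNO3 replicate 2. TAMM27 (-0.51), NFA8 (0.30), SQ8 (0.23) and Var2-1 (-0.20) did not pass (adjusted p of 0.242 to 0.79), where 21.7, 5.36, 17.9 and 10.6% of the tested genes did.

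In KNO3 the mean AT3G52960 signal was highest in Ts5 (2590.0 ± 1493, SD, n = 3), followed by Col0 (1515 ± 652), NFA8 (1173 ± 233), TAMM27 (928 ± 401), SQ8 (919 ± 152), Var2-1 (598 ± 119) and Kas2 (585 ± 324). Along this order only SQ8 and Var2-1 were neighbours whose arrays did not overlap. In KCl the order was Col0 (1222 ± 796), SQ8 (564 ± 260), Var2-1 (491 ± 64.6), NFA8 (469 ± 159), Ts5 (392 ± 107), TAMM27 (323 ± 304) and Kas2 (92.5 ± 52.8), and all neighbours overlapped. Ts5 thus had the highest mean in KNO3 and one among the 3 lowest in KCl. The lowest and highest group means were 4.43-fold apart in KNO3 and, with the Kas2 mean under 100 taken as 100, at least 12.2-fold apart in KCl. Differences among accessions passed in KNO3 alone (limma F-test, adjusted p = 0.0425, as for 29.9% of the tested genes) and in KCl alone (adjusted p = 3.91e-04, as for 27.9%). The KNO3 call was lost without Ts5 KNO3 replicate 2 (adjusted p = 0.146) and on arrays of low 3' to 5' ratio (0.236), and the KCl call in a fit of the linear signal without moderated variances (adjusted p = 0.427).

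SAPX levels spanned a narrower range. The average over the treatments differed among accessions (limma F-test, adjusted p = 0.0455), as it did for 59.8% of the tested genes. This call was lost without Var2-1 KNO3 replicate 1 (adjusted p = 0.108). Var2-1 was lower than the mean of the other 6 by a log2 difference of -0.64 (SE 0.19, adjusted p = 0.0356), where 10.6% of the tested genes passed. This call, too, was lost without Var2-1 KNO3 replicate 1 (adjusted p = 0.239) and without Var2-1 KCl replicate 3 (adjusted p = 0.118), as well as with array medians scaled to each other (0.138) and without both Var2-1 arrays of replicate 1 (0.273). NFA8 had a difference of 0.51 (SE 0.19) that did not pass (adjusted p = 0.161), and the other 5 lay between -0.10 and 0.20.

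In KNO3 the mean SAPX signal was highest in NFA8 (1253 ± 430.2, SD, n = 3) and SQ8 (1032 ± 165), followed by Col0 (852 ± 57.6), TAMM27 (819 ± 125), Ts5 (755 ± 245), Kas2 (648 ± 273) and Var2-1 (549 ± 291), where only SQ8 and Col0 were neighbours without overlap. In KCl the order was Ts5 (1746 ± 206), NFA8 (1562 ± 405), Kas2 (1505 ± 37.7), SQ8 (1228 ± 436), TAMM27 (1108 ± 248), Col0 (1073 ± 226) and Var2-1 (966 ± 145), with overlap throughout. The group means spanned 2.28-fold in KNO3 and 1.81-fold in KCl. Differences among accessions passed in KNO3 alone (limma F-test, adjusted p = 0.0707), as for 29.9% of the tested genes. They did not pass in KCl alone (adjusted p = 0.303), where 27.9% did. The difference between these tests is the interaction, which did not pass. The KNO3 call was lost in 6 of the 42 fits without 1 array, those without Kas2 KNO3 replicate 1 or 2, NFA8 KNO3 replicate 1 or 2, SQ8 KNO3 replicate 3 or Var2-1 KNO3 replicate 1, with an adjusted p of up to 0.156. It was lost, too, with array medians scaled to each other (0.232), on the linear signal (0.156), on arrays of high ratio (0.303) and without both Var2-1 arrays of replicate 1 (0.145). The F-test in KCl alone did pass on the linear signal (adjusted p = 0.0504), on arrays of low ratio (0.0545) and with the ratio as a covariate (0.00923).

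Over the 7 KNO3 group means of log2 signal they were positively correlated (Pearson r = 0.439, Spearman rho = 0.500), and over the 7 KCl group means negatively (r = -0.402, rho = -0.464), a difference that was not tested. Over the 7 responses, whose averages chose the pair, r was -0.577 (rho = -0.607). Between arrays of the same group, after the group means were taken off, the correlation over 42 arrays was 0.182 (rho = 0.222). These coefficients describe few points that share a platform and a scaling.

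The array-to-array spread within groups was 0.71 on the log2 scale for AT3G52960 and 0.43 for SAPX, higher than that of 70.7% and 26.3% of the tested genes. For SAPX it ran with the 3' to 5' ratio. With group means taken off both, SAPX signal was lower where the ratio was higher (r = -0.745, rho = -0.741, n = 42 arrays in 14 groups), and r was -0.70 without the 2 arrays farthest out in ratio. The correlation was -0.812 over the 21 KNO3 arrays and -0.67 over the 21 KCl arrays, and 4.25% of the tested genes had a value as low. For AT3G52960 r was -0.0697 (rho = -0.0717). With the ratio as a covariate the averages were 1.42 for AT3G52960 and -0.74 for SAPX, close to those without it, and the SAPX differences among accessions had an adjusted p of 0.00291, also passing in KCl alone (adjusted p = 0.00923). With the green tissue signal, taken the same way, r was -0.0632 for AT3G52960 and -0.329 for SAPX, and 0.0148 and 0.0963 without the 2 arrays farthest out.

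**Figure D3:**
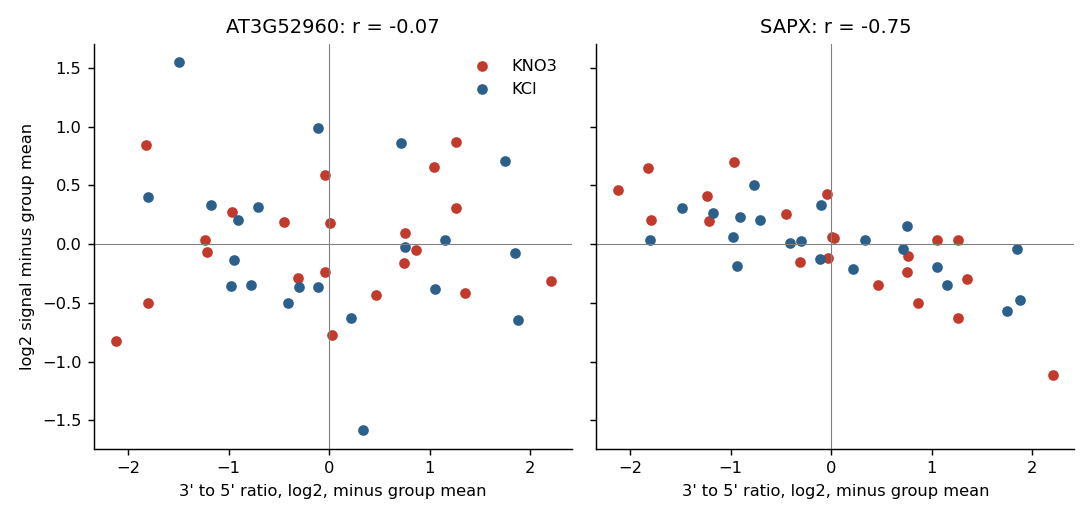
Deviation of log2 signal from its group mean (vertical) against deviation of the 3' to 5' ratio from its group mean (horizontal, log2) for AT3G52960 (left) and SAPX (right), 1 point per array, KNO3 red and KCl blue. SAPX falls along a line of negative slope (r = -0.745), and AT3G52960 does not (r = -0.0697).

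The responses themselves were not of one size on arrays of low and of high ratio. On the arrays of low ratio alone (19 arrays), which leave Col0, NFA8, SQ8 and Var2-1, the AT3G52960 average was 0.70 and the SAPX average -0.38. On those of high ratio alone (13 arrays), which leave Kas2, TAMM27 and Ts5, they were 2.80 and -1.15. These subsets share no accession, and between them the effects of ratio and accession cannot be told apart. In Kas2 the KNO3 array of replicate 3, with signals of 959 and 962, was the only array of low ratio, and without it the Kas2 responses were 2.23 for AT3G52960 and -1.61 for SAPX. Within TAMM27, the AT3G52960 difference of KNO3 and KCl was 2.97 over the 2 high-ratio arrays of each treatment and -0.09 between the single low-ratio arrays. Within Ts5 the same differences were 3.21 and 1.36, and within NFA8 2.32 (1 array each) and 0.89 (2 arrays each). In Var2-1 they were 0.03 and 0.39, so the larger difference lay on the high-ratio arrays in 3 of the 4 accessions that had both kinds. For SAPX it did so in 3 of 4 as well, with -1.47 and -0.83 in Ts5, -2.06 and -0.46 in Var2-1, -0.50 and -0.27 in NFA8, and -0.37 and -0.53 in TAMM27. The part of RNA integrity in the sizes of the responses was not tested.

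Each probe set carries 11 elements, and for the 6 accessions other than Col0 the authors discarded elements that stood out against Col0, separately in each treatment, before the signals were made. The numbers discarded for AT3G52960 in KNO3 and in KCl were 0 and 6 in Kas2, 2 and 4 in NFA8, 1 and 3 in SQ8, 4 and 5 in TAMM27, 5 and 3 in Ts5, and 0 and 4 in Var2-1. For SAPX the numbers in KNO3 and in KCl were 0 and 6 in Kas2, 2 and 3 in NFA8, 1 and 2 in SQ8, 1 and 3 in TAMM27, 3 and 4 in Ts5, and 2 and 2 in Var2-1. No accession dropped the same elements in both treatments for either gene, so that outside Col0 the KNO3 and KCl signals of a gene rest on sets of elements that differ in part. Element 7 of AT3G52960 was dropped in KCl in all 6 accessions and in KNO3 in 3, and element 5 of SAPX in KCl in all 6 and in KNO3 in 0.

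Losing 6 or more elements was rare. In Kas2 KCl it happened to 1.36% of the probe sets. Of these, 20 lost none in Kas2 KNO3 (0.0879% of all probe sets), both genes among them. The 2 genes, with the same counts discarded, had Kas2 responses of opposite sign, like the averages on which the pair was chosen. Among the 8 other tested genes with 0 elements dropped in Kas2 KNO3 and 6 in Kas2 KCl, the median response in Kas2 was -0.40 for the set compared with AT3G52960 and -0.12 for that compared with SAPX, each set counting the other gene. The responses of AT3G52960 and SAPX in Kas2 enter the averages that chose them, so neither their signs nor their place among these genes is read. In Col0, with no element dropped, the responses were 0.39 for AT3G52960 (SE 0.55) and -0.31 for SAPX (SE 0.36), each the second smallest in size of the 7. Each was smaller than its SE. The Col0 responses also enter the averages that chose the genes, so their signs are not read. The part of the discarded elements in the responses, and of sequence differences from the Col0 probes in the levels among accessions, was not tested.

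**Figure D4:**
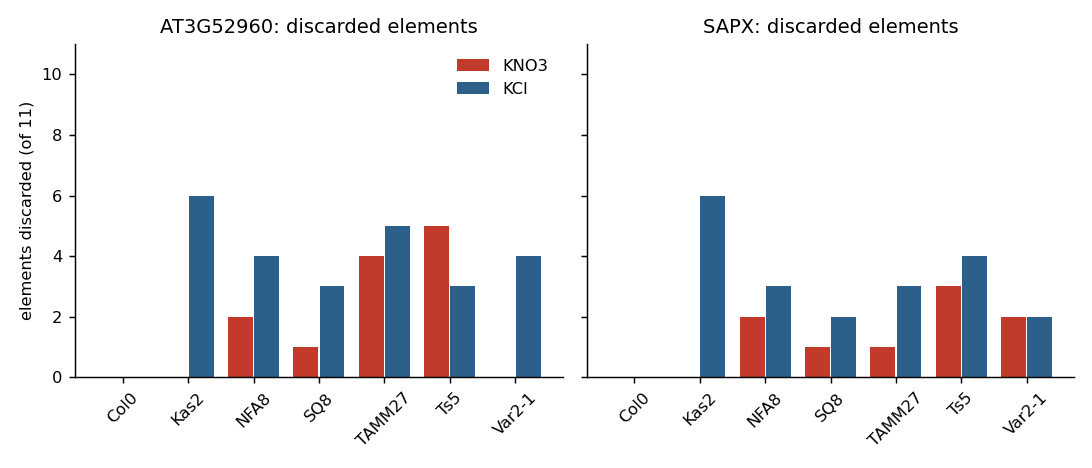
Number of the 11 elements of the AT3G52960 (left) and SAPX (right) probe sets that were discarded in each accession, KNO3 (red) left of KCl (blue). Col0 has none, and Kas2 has 6 in KCl and 0 in KNO3 for both genes.

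Of 67 other genes of peroxide removal and its supply of reductant, 16 were among the tested genes, 2 (TAPX and TRXF2) had a mean signal under 100, 9 more were named from the study's list of probe sets, and 40 were not analysed here. Of the 16, 0 passed for the averaged response (3 had an unadjusted limma p under 0.05, and 0 passed in a fit with unmoderated variances), where 0.789% of all tested genes passed. Their averages ran from -0.35 to 0.28, with 8 positive and 8 negative and a median of -0.01, against -0.01 for all tested genes. The median size was 0.11, against 0.13 for all. The averages of AT3G52960 and SAPX, for which the pair had been picked, lay outside the range of these 16.

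Among the peroxiredoxins, which share the peroxide substrate of peroxiredoxin IIE, the mitochondrial PRXIIF had an average of -0.09 (SE 0.17) and group means between 421 and 908. The plastid 2-Cys peroxiredoxin 2CPA had -0.07 (SE 0.16) and 624 to 1169, and did not pass in either direction. The cytosolic PRXIIB, 1 of the 9 genes outside the tested set, had -0.38 (SE 0.20, limma adjusted p = 0.684 over all probe sets), with a response of -1.42 in Ts5 and 0.44 in Kas2. Its group means ran from 533 in Ts5 KNO3 to 5521 in Kas2 KNO3.

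Among the ascorbate peroxidases, the thylakoid TAPX, the nearest relative of SAPX in the plastid, had a mean signal of 44.2 over all arrays, below the limit for testing, and group means of 13.2 to 108. Its average was 0.77 (SE 0.40, limma adjusted p = 0.68 over all probe sets), and its 4 highest group means, in Var2-1 KNO3 (108), TAMM27 KNO3 (98.1), Ts5 KNO3 (91.6) and TAMM27 KCl (90.4), were in the 4 groups with the highest mean green tissue signal. The part of green tissue in its values was not tested. The cytosolic APX1, also outside the tested genes, had 5122 to 9119 and an average of -0.07 (SE 0.11, adjusted p = 0.94).

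Among the enzymes that recover ascorbate and glutathione, GR1, the cytosolic and peroxisomal glutathione reductase, had an average of -0.35 (SE 0.12, adjusted p = 0.27) and a negative value in all 7 accessions, as had CCS below and 1.4% of the tested genes. GR2, the plastid and mitochondrial form, had 0.01 (SE 0.15), and the monodehydroascorbate reductase MDAR2 -0.12 (SE 0.14). Outside the tested genes, MDAR6 had 0.57 (SE 0.20, limma adjusted p = 0.373 over all probe sets), with a positive value in 6 of 7 accessions. DHAR2, also outside them, had 0.18 (SE 0.13, adjusted p = 0.799). In ascorbate synthesis GME had 0.28 (SE 0.13, adjusted p = 0.524), VTC4 0.13 (SE 0.20) and GLDH -0.03 (SE 0.14). The 7 tested genes whose products reduce or repair peroxiredoxins, GRXS12, NTRC, SRX, TRXM2, TRXX, TRXY1 and TRXY2, ranged from -0.13 (GRXS12) to 0.25 (TRXX). CCS, which encodes the copper chaperone of superoxide dismutase, had -0.34 (SE 0.12, adjusted p = 0.334). Among the 16 tested genes, the 3 with an unadjusted limma p under 0.05 were GR1, CCS and GME.

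**Figure D5:**
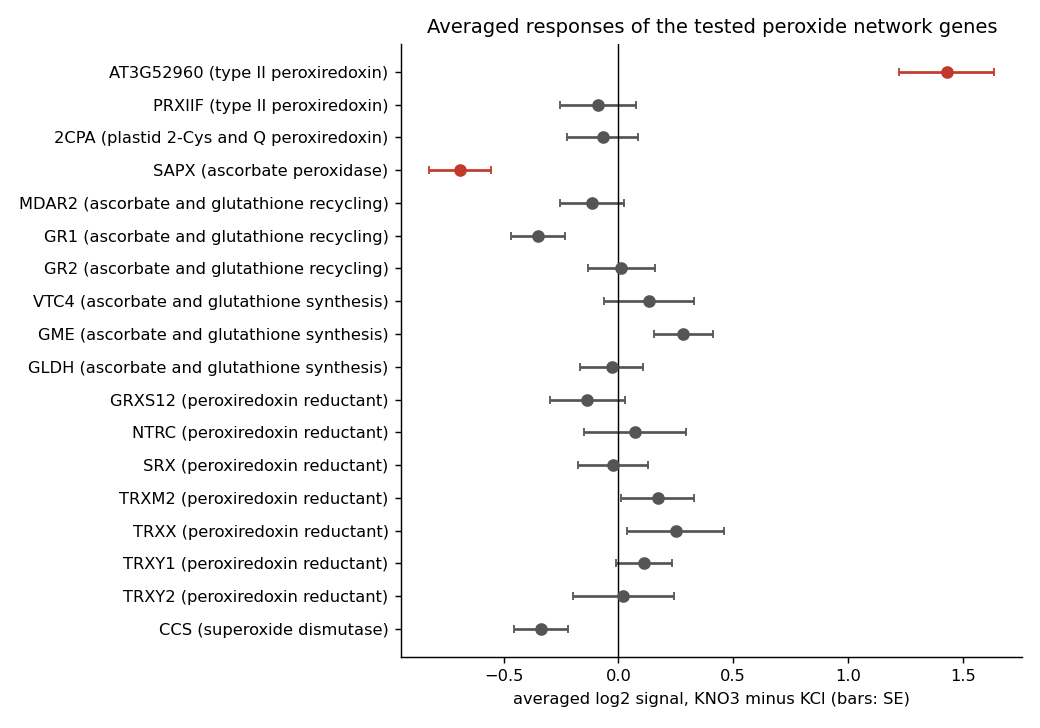
Averaged response (log2 signal, KNO3 minus KCl, with bars of 1 SE) of the 18 tested genes of peroxide removal and reductant supply, with AT3G52960 and SAPX in red. The other 16 lie between -0.35 and 0.28, and AT3G52960 (1.43) and SAPX (-0.69), which were chosen on this value, lie outside them.

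Differences among accessions passed for 5 of the 16 (2CPA, GR1, GME, VTC4 and SRX), where 59.8% of all tested genes passed, and the interaction for 0 of 16 (1 gene had an unadjusted limma p under 0.05, and 0 passed when variances were not moderated). SRX, the sulfiredoxin that repairs over-oxidised 2-Cys peroxiredoxins, had group means from 109 in Ts5 KCl to 401 in SQ8 KCl (limma F-test, adjusted p = 4.51e-05). VTC4, of ascorbate synthesis, ranged from 84.4 in Col0 KCl to 602 in Var2-1 KNO3 (adjusted p = 5.55e-05). GME, an enzyme of the same route, had its highest group mean, 2224, in Var2-1 KNO3 (adjusted p = 0.00954), the group with the array of high green tissue signal. The 9 genes outside the tested set were named mostly from a list that the study had selected on these arrays, so their calls are not counted.

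By their pattern over the 14 group means of log2 signal, the tested genes most like AT3G52960 were AT1G72160 (r = 0.882), AT4G32950 (r = 0.861) and AT2G28510 (r = 0.857), and those most opposite to it AT3G24200 (r = -0.886), AT1G19130 (r = -0.861) and AT3G13780 (r = -0.856). AT4G32950 had an averaged response of 0.70 (SE 0.27) and AT3G13780 one of -0.86 (SE 0.20), and the other 4 had averages between -0.38 and 0.37. For SAPX the most alike were AT1G72480 (r = 0.82), AT3G20510 (r = 0.807) and AT4G22530 (r = 0.781). The most opposite were GTR1 (r = -0.822), which encodes a glucosinolate transporter, AT1G68660 (r = -0.816) and AT3G51370 (r = -0.774). None of the 12 belongs to the peroxide genes above. Between arrays of the same group, in the order above, r with AT3G52960 was -0.086, -0.039 and 0.216 for the most alike. It was -0.400, -0.106 and -0.168 for the most opposite. With SAPX, r between arrays was 0.153, 0.693 and 0.529 for the most alike, and -0.683, -0.332 and 0.123 for the most opposite. SAPX correlated with AT3G52960 itself at -0.44 over the same 14 means (rho = -0.521), a value that the choice of the pair partly fixes. Since the most extreme coefficients over all tested genes are given, these values describe likeness and carry no test.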

How the data were processed

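ATH1 arrays of whole roots were analysed from the deposited series matrix, whose values are signal intensities on a linear scale that the authors made with MAS5 after discarding outlier elements in each accession and treatment except in Col0. A supplementary table of the study holds the same values beside other probe set names. Its own flag for low signal fits the names in the matrix and not its own values, so the matrix was used. The software version and further scaling are not given in the sources used here. A further 12 deposited lists name the discarded elements, which were counted per probe set. Array, accession, treatment and replicate came from the sample labels.

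Of 22810 probe sets, 64 controls were left out. The platform annotation gave 13513 probe sets 1 gene, 503 several and 8730 none. The 13367 with 1 nuclear gene (symbols from RefSeq TAIR10.1) were filtered to 6590 with a mean signal of at least 100. Genes without an entry (12, among them PRXIIB, APX1, NIR1 and NRT2.1) were named from the study's supplementary pairing of probe sets with genes, nearly all of it a list of genes selected on these arrays, and their values are adjusted over all 22746. NIA1, named in the rule below, was not analysed here.

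In R 4.3.3 with limma 3.58.1, log2(signal + 1) was fitted to 14 group means with moderated variances and a trend. Two-sided t-tests and F-tests were adjusted by Benjamini-Hochberg over the tested probe sets, at 0.1 as in the study's methods. The fit was tested on simulated data. Fold changes are on the log2(signal + 1) scale. On arrays, 3 per group limits the precision. Alternatives changed normalization, pseudocount, filter, variance model, test, replicate block, ratio covariate and arrays. Leaving out Kas2, and the green tissue signal as a covariate, were added after the data were seen.

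The members and gene lists were chosen with earlier results of these data known. Named were the members, list genes called for the averaged response, the type II, 2-Cys and Q peroxiredoxins, TAPX, APX1, the 3 most and 3 least alike genes of each member, and NIR1, NRT2.1 and NIA1. Other list genes were named after their values were seen. Sequences are not analysed here.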

Additional observations from a re-analysis of the deposited data

How the results depend on the processing

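The directions of both averaged responses held in every setting tried. The genes were chosen on these averages and the settings refit the same arrays, so this is no independent support for the directions. The AT3G52960 average was between 1.32 and 1.54 without single arrays, 0.70 where the 3' to 5' ratio was low and 2.80 where it was high, and the SAPX average between -0.74 and -0.61 without single arrays -0.38 where the ratio was low and -1.15 where it was high. AT3G52960 differences among accessions passed in all 16 other settings (adjusted p up to 0.028, without Kas2) and in all 42 fits without 1 array (9.24e-06 to 6.02e-04). SAPX differences among accessions were lost with array medians scaled to each other (adjusted p = 0.175), on arrays of high ratio alone (0.494) and without both Var2-1 arrays of replicate 1 (0.132), and ranged from 0.0162 to 0.108 without single arrays. The interaction passed in no setting for either gene (without single arrays, 0.256 to 0.838 for AT3G52960 and 0.655 to 1.00 for SAPX). The causes were not tested, and the subsets by ratio hold fewer arrays and accessions.

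Of the peroxide genes, 1 passed for the averaged response on arrays of high ratio alone (CCS) and 1 without Kas2 KCl replicate 1 (GR1), a range of 0 to 1 without single arrays. Among accessions 8 passed with the ratio as a covariate, 3 on arrays of high ratio alone and 8 without both Var2-1 arrays of replicate 1, and 4 to 8 without single arrays, the highest without Ts5 KNO3 replicate 3. For the interaction 0 passed in all settings.

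The replicate numbers recur in all groups. In 21 pairs of KNO3 and KCl arrays with the same number in an accession, deviations from the group means correlated at -0.222 to 0.692 (median 0.185), over 0.1 in 11. Every pair was over 0.1 in TAMM27 (0.413 to 0.692), Var2-1 (0.402 to 0.427) and Col0 (0.185 to 0.218). The main fit left the pairing out. A block for each replicate number within each accession left the averages unchanged, with an SE of 0.18 for AT3G52960 and 0.13 for SAPX. The interaction did not pass with this block (limma F-test, adjusted p = 0.361 and 0.675). Differences in level among accessions cannot be tested with it. With a replicate block common to all accessions, the differences among accessions had adjusted p of 7.91e-05 for AT3G52960 and 0.0414 for SAPX (limma F-test). Then 7 peroxide genes passed, against 5 without that block (CCS and MDAR2 in addition). It changed no call of AT3G52960 or SAPX. A fit on accessions whose lists drop the same elements in both treatments could not be run, since Col0 alone remains. The ANOVA on the linear signal gave averages of 679 and -469 signal units, which are not on the log2 scale.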
